A study of Mus musculus with 11 samples.

Results

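Among single germ cells of the mouse testis, the wells richest in Gml, Hemt1, Mnd1, Gm3833, Cntd1 and Pnp RNA were taken as a set, labelled early pachytene spermatocytes. The set was chosen by measured values. Each well's score was the mean over these 6 genes of the natural log of 1 + UMIs per 10000, where a UMI is a random tag that marks one captured RNA molecule. The highest 6% of wells by score within each mouse were members, among wells with at least 3000 UMIs outside spike-ins, mitochondrial genes, the reporter and Rn45s. This gave 72 members of 1228 kept wells (of 1920 wells in all): 28 of 475 in mouse 1, 16 of 273 in mouse 2 and 28 of 480 in mouse 3. The last member and the first well left out scored 1.364 and 1.361 in mouse 1, 0.944 and 0.930 in mouse 2, and 0.935 and 0.933 in mouse 3. Between 11 and 15 non-members per mouse lay within 0.1 of the cutoff, so the set is the top of a range. Highest scores were 1.79, 1.29 and 1.29, against medians of 0.382, 0.173 and 0.238 in the wells outside the set.

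The study profiled adult testis of 3 untreated Dazl-GFP reporter mice, in which green fluorescent protein follows Dazl, a germ-cell gene. Live GFP-positive cells were sorted singly into plate wells, and 3' ends of polyadenylated RNA were counted by SORT-Seq. All groups described here are sets of wells within these mice: every mouse carries the reporter, no treatment was given, and strain and age in weeks are not given. Mouse 1 was processed by CEL-seq1 with index sorting (8 libraries), mouse 2 by CEL-seq2 with index sorting (1 library), and mouse 3 by CEL-seq2 (1 gate-sorted and 1 index-sorted library), so protocol and mouse 1 cannot be told apart. Wells of a mouse share that mouse and are not replicates, so n = 3 mice throughout. Members made up 4.87% of kept wells in the gate-sorted library (13 of 267, exact 95% binomial interval 2.62 to 8.18) and 7.04% in the index-sorted library of the same mouse (15 of 213, 3.99 to 11.3).

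In the pachytene stage of meiotic prophase, homologous chromosomes are joined along their length by the synaptonemal complex while double-strand breaks are repaired by recombination. The X and Y chromosomes, which pair over a short region only, are transcriptionally silenced in a chromatin domain called the sex body. RNA of X-linked genes therefore declines at the passage from zygotene to pachytene, and programs of spermatid formation and piRNA production increase during the stage.

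The 6 score genes have distinct products and positions (RefSeq, GRCm38.p6). Gml (chromosome 15, 74813434 to 74820049) encodes a glycosylphosphatidylinositol-anchored protein of the Ly6 family, and Hemt1, listed by RefSeq as a synonym of Gml2, lies beside it (74818941 to 74846148). The 2 RefSeq models overlap at their starts and are drawn on opposite strands in GENCODE. Whether the authors' counting used strand is not given in the sources used here, so reads in the overlap cannot be assigned. Mnd1 (chromosome 3, 84087933 to 84155798) encodes a partner of PSMC3IP that helps DMC1 exchange strands, and Gm3833 is a synonym of Mnd1-ps (chromosome 14, 9884095 to 9886868), a transcribed pseudogene of Mnd1. Reads of the gene and its copy may be split between the 2 rows. Cntd1 (chromosome 11, 101279203 to 101288701) encodes a cyclin-related factor that matures crossovers, and Pnp (chromosome 14, 50944303 to 50953412) encodes purine nucleoside phosphorylase, with the paralogue Pnp2 alongside.

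Sequences upstream of the annotated starts are shown for the score genes with an entry in the RefSeq promoter table (3 of 6) and for Rad51ap2, a recombination gene. All of them were higher in members than in all other kept wells. Of the 72 wells highest in Rad51ap2, however, only 9 were members. Bases in any annotated exon are left out, and capitals mark matches to the motifs named next. No match was found upstream of Mnd1 (chr3:84155799-84156036, minus strand) or Pnp (chr14:50944053-50944301, plus strand). For Cntd1, 30-base windows around its 2 matches (chr11:101279004-101279033 and chr11:101279105-101279134, plus strand) are given because the surrounding bases are exonic. Rad51ap2 is at chr12:11455805-11456022, plus strand.
Mnd1: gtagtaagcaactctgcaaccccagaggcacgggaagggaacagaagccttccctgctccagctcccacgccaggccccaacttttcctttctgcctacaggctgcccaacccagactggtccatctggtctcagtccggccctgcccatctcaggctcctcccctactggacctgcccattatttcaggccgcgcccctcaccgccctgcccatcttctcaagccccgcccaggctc
Cntd1, E-box: ggagctgtagtcCACGTGgagttttctggg
Cntd1, MYB core: agctctctgtgtCAGTTGgggcgcgaaaag
Pnp: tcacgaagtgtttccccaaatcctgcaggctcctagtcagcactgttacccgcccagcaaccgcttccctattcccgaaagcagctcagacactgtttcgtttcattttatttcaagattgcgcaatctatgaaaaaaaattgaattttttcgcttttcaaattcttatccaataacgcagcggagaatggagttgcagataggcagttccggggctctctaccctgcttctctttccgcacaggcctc
Rad51ap2: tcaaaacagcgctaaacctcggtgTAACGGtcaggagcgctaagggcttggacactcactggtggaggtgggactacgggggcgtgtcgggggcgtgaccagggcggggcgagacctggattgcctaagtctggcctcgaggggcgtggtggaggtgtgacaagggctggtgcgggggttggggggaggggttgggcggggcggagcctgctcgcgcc
The motifs searched on both strands in the 250 bases before each start were the MYB core (CAACGG or else CAACTG, and with a first T either TAACGG or else TAACTG), the E-box CACGTG, the cAMP response element TGACGTCA and the STRA8 motif CNCCTCAG. The MYB core, read by pachytene regulators such as MYBL1, matched in Cntd1 86 bases before the start, on the opposite strand, and in Rad51ap2 226 bases before it. The E-box matched in Cntd1 187 bases before the start. Over all 27025 promoters, the MYB core occurred in 23.7%, the E-box in 6.05%, the cAMP response element in 1.62% and the STRA8 motif in 6.39%. Among 1519 promoters of genes higher in members, the shares were 24.7%, 9.81%, 3.09% and 6.52%, beside 21.8%, 8.82%, 2.91% and 7.24% of all 9120 promoters of tested genes. A match is a description of the letters only.

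The score genes set the choice, so their levels are given as a description without a test. Levels are in CPM, the UMIs of a gene per 1000000 UMIs, from UMIs summed over the wells of a set in each mouse. Gml stood at 963, 869 and 709 in members of mice 1, 2 and 3, and at 302, 214 and 219.8 in all other kept wells. Hemt1 stood at 529, 384 and 426, beside 141, 90.6 and 92.1. Pnp stood at 112, 91.0 and 96.5, beside 24.1, 17.1 and 18.0. For these 3 genes members and other wells lay apart in every mouse. Mnd1 stood at 314, 199.6 and 131, beside 35.9, 19.8 and 16.9, and Cntd1 at 449, 167 and 216, beside 197, 58.4 and 72.6. Gm3833 stood at 171, 11.7 and 6.19, beside 16.8, 0.741 and 0.530, so it was seen mainly in mouse 1, the CEL-seq1 mouse: 27 of 28 members had at least 1 Gm3833 UMI there, beside 4 of 16 and 5 of 28 in the others. All 72 members had Gml and Hemt1 UMIs. After each well was thinned to 3000 UMIs, Gml was seen in 96.4%, 100% and 85.7% of members, beside 42.7%, 26.1% and 34.5% of other wells, and Hemt1 in 60.7% to 82.1% of members, beside 17.1% to 24.6% of other wells. Without Gm3833 in the score, 64 of the 72 members were chosen again.

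**Figure D1:**
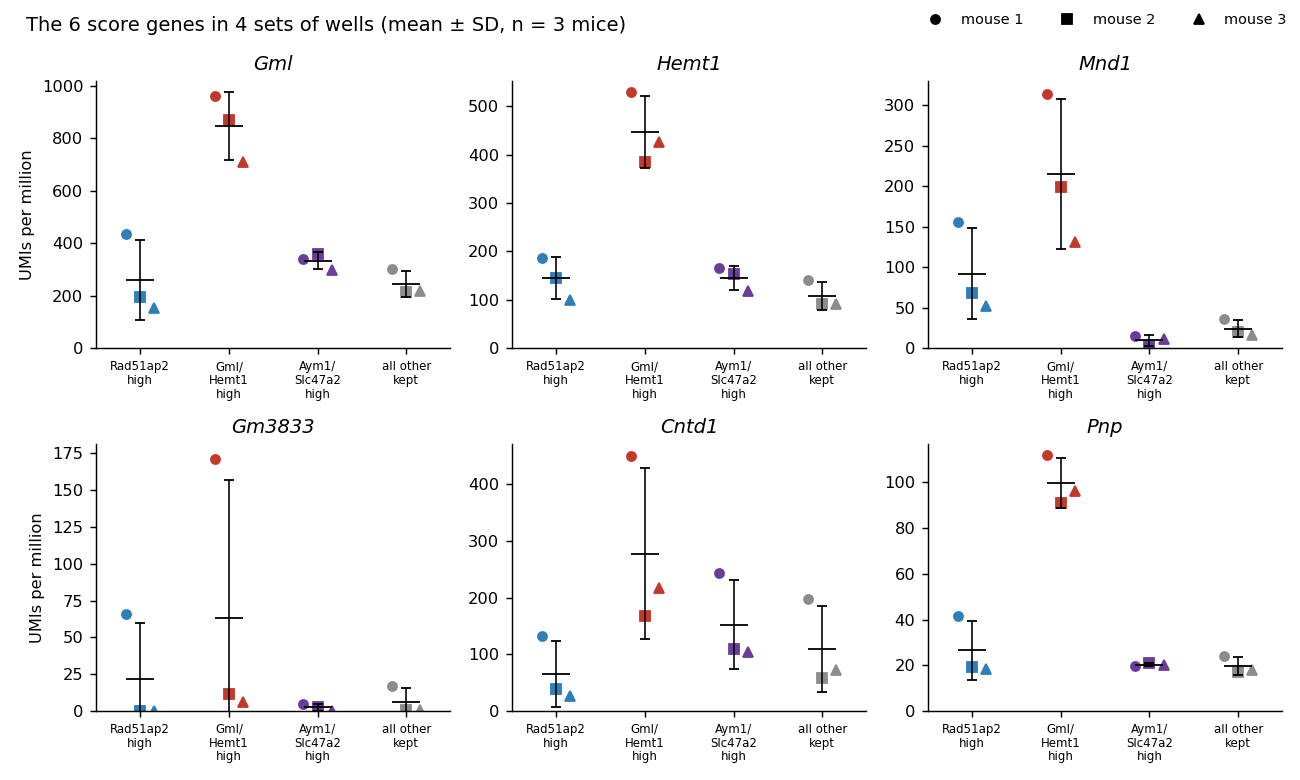
CPM of each score gene by set of wells, with a symbol for each mouse and a bar for the mean ± SD (n = 3 mice). All 6 genes had their highest mean in the Gml/Hemt1-high wells, which is how those wells were chosen, and Gm3833 was high in mouse 1 alone.

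The genes also went together when they took no part in the choice. In wells chosen by the 4 other genes, Gml was 2.73-, 3.27- and 2.84-fold higher than in the remaining wells of mice 1, 2 and 3, and Hemt1 was 3.17-, 3.86- and 3.61-fold higher. In wells chosen by Gml and Hemt1 alone, Mnd1 was 5.12-, 8.75- and 6.39-fold higher, Pnp was 4.07-, 4.75- and 4.35-fold higher, and Cntd1 was 2.30-, 2.36- and 1.96-fold higher. The ratios lay on one side in all 3 mice. The 6 genes were picked together with earlier results of these wells known, so the ratios carry no test.

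For comparison, 2 further sets were formed in the same way from genes of neighbouring stages. Wells in the top 6% for Rad51ap2 that were not members (63 wells) are called Rad51ap2-high, and wells in the top 6% for Aym1 and Slc47a2 (72 wells) are called Aym1/Slc47a2-high. Of the 72 wells highest in Rad51ap2, 9 were members, and none of the wells highest in Aym1 and Slc47a2 was. Members had median depths of 26806, 18689 and 23010.5 UMIs per well in mice 1, 2 and 3, above the 20802, 12481 and 18530.5 of all other kept wells. Rad51ap2-high wells were shallower (9714.5, 6523 and 10310) and Aym1/Slc47a2-high wells deeper (73326, 42327.5 and 90091.5). Relative to spike-in RNA, members gave 165, 45.8 and 35.4 UMIs per spike-in UMI and other wells 166, 46.7 and 46.3, a log2 difference of -0.14 ± 0.21 (SD, n = 3; exact two-sided permutation p = 0.5). The direction turned with the summary: as medians over wells, members gave 139, 41.9 and 31.8 and other wells 113, 28.9 and 26.9, a log2 difference of 0.36 (exact permutation p = 0.5). Against Rad51ap2-high wells the log2 differences of summed UMIs within mice 1, 2 and 3 were 1.55, 1.42 and 1.49, all of one sign, and against Aym1/Slc47a2-high wells they were -1.22, -1.51 and -1.84. The permutation does not pair the sets of a mouse, so its p of 0.3 for each of these comparisons also carries the spread between mice, and with 3 mice per set its smallest possible p is 0.1. The score rose with depth over kept wells (Spearman's rho 0.28, 0.30 and 0.28 over 475, 273 and 480 wells), and when every well was thinned to 3000 UMIs before scoring, 40 of the 72 members were chosen again. The mitochondrial share of UMIs was 5.85%, 13.1% and 12.3% in members, beside 4.43%, 10.8% and 9.36% in other wells. The part of depth and of mitochondrial share in the differences below was not tested.

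X-linked RNA was scarce in members. Members of mice 1, 2 and 3 gave 0.455, 0.348 and 0.291 X-linked UMIs per 100 autosomal UMIs, against 1.17, 1.24 and 0.839 in all other kept wells. The 2 sets did not overlap, and the mean log2 difference was -1.58 ± 0.24 (SD, n = 3; exact permutation p = 0.1, the smallest possible). The counts behind the member values were 3508, 1179 and 2338 X-linked UMIs. Rad51ap2-high wells gave 2.47, 2.45 and 2.74, so members lay 2.83 ± 0.40 lower on the log2 scale (exact permutation p = 0.1). Aym1/Slc47a2-high wells gave 0.360, 0.139 and 0.104, below members in each mouse, by 1.05 ± 0.62 on average (exact permutation p = 0.3). Y-linked UMIs per 100 autosomal UMIs were 0.0122 ± 0.0027 in members, 0.0614 ± 0.0219 in other wells, 0.185 ± 0.079 in Rad51ap2-high wells and 0.0050 ± 0.0002 in Aym1/Slc47a2-high wells (mean ± SD, n = 3).

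**Figure D2:**
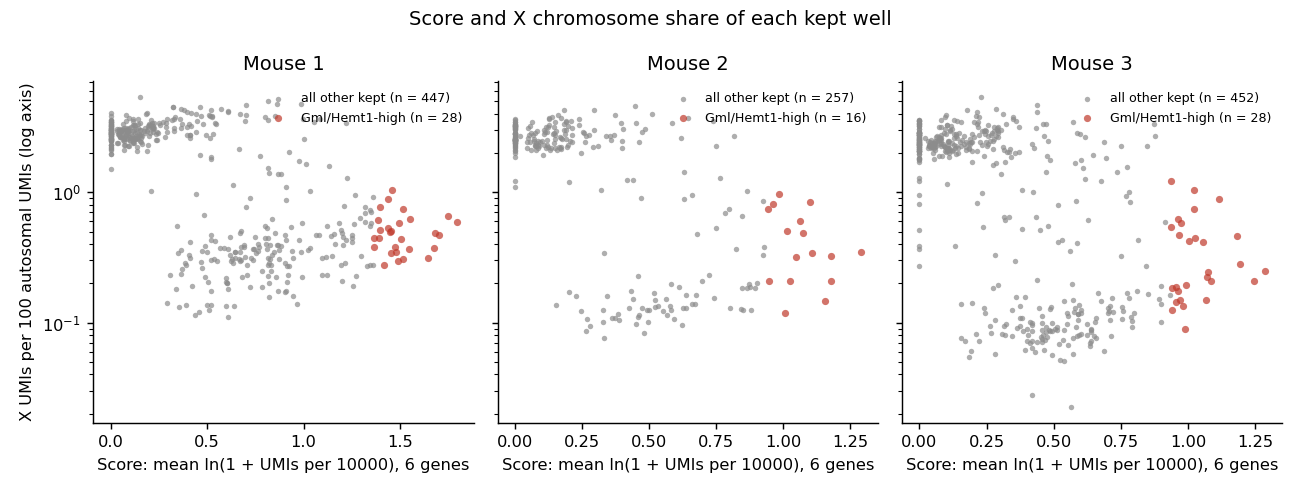
Each point is a kept well, with its score on the horizontal axis and X-linked UMIs per 100 autosomal UMIs on the vertical log axis, by mouse. Members (red) lay at the right by choice, and nearly all of them lay below an X share of 1 while the other wells (grey) spread over a high and a low group.

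Well by well, the X share was below 1 in 27 of 28, 16 of 16 and 26 of 28 members. The same held for 38.5%, 28.0% and 36.7% of other wells, for 5 of 24, 2 of 14 and 1 of 25 Rad51ap2-high wells, and for all Aym1/Slc47a2-high wells. Single members ranged from 0.278 to 1.05 (median 0.476) in mouse 1, from 0.119 to 0.971 (median 0.347) in mouse 2 and from 0.0886 to 1.21 (median 0.246) in mouse 3. Within members, wells with more Rad51ap2 had a higher X share (Spearman's rho 0.31, 0.33 and 0.47 over 28, 16 and 28 wells, a description over wells of the same libraries). The score itself had no such common direction with the X share within members (rho -0.05, -0.26 and 0.13).

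Gene by gene, differences were fitted with edgeR over all genes outside the score, on UMIs summed per mouse and set, with the mouse as a block. Members and others were separated by the score, measured in the same wells, so these adjusted p-values are no independent evidence for the set. The spread in this fit was pooled over all genes. A single gene's own scatter over the 3 mice therefore had little or no part in its adjusted p or SE. Among 12216 genes tested against all other kept wells, 2017 were higher in members (16.5%) and 3284 were lower (26.9%) at an adjusted p under 0.05. With members chosen on thinned wells, 1236 genes were higher and 2126 were lower. Without mouse 1 the counts were 1977 and 2067, without mouse 2 1250 and 2555, and without mouse 3 1506 and 2107. Among X-linked genes, 264 of 381 were lower and 5 were higher, beside 3005 and 2012 of 11819 autosomal genes, and 15 of 16 Y-linked genes were lower. The median log2 fold change was -2.37 over X-linked genes and -0.17 over autosomal genes.

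**Figure D3:**
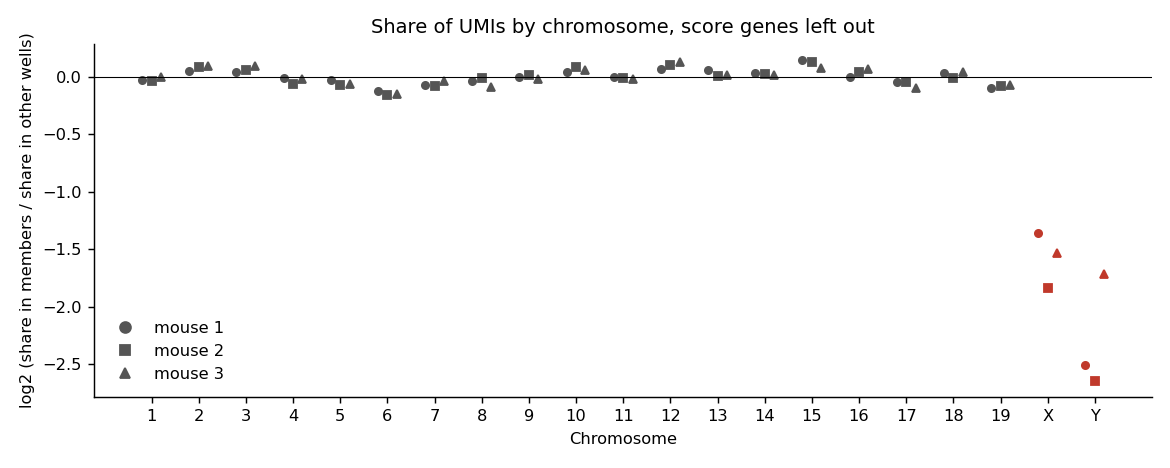
Log2 ratio of each chromosome's share of UMIs in members to that in all other kept wells, with a symbol for each mouse. X and Y (red) lay between -1.36 and -2.65 in all mice, while the autosomes lay between -0.15 and 0.15.

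The 5 X-linked genes higher in members were Fmr1nb, Ndufa1, Gm364, Prdx4 and Atp6ap1. Fmr1nb, a germ-cell gene beside Fmr1, stood at 166, 208 and 142 CPM in members and 58.4, 78.8 and 54.1 in other wells, without overlap (log2 fold change 1.55 ± 0.15 SE, adjusted p = 1.8e-22). Ndufa1, a subunit of mitochondrial complex I, stood at 373, 417 and 298 and 154, 194 and 132 (log2 fold change 1.30 ± 0.13, adjusted p = 1.9e-20). Prdx4 encodes a peroxiredoxin and stood at 203, 252 and 209, beside 89.9, 169 and 116. All 5 were higher still in Rad51ap2-high wells and lower in Aym1/Slc47a2-high wells in each mouse: Fmr1nb averaged 497 ± 109 CPM in Rad51ap2-high wells and 3.58 ± 3.78 in Aym1/Slc47a2-high wells, and Ndufa1 averaged 719 ± 46.7 and 91.9 ± 21.4. Ndufa1 alone gave 10.2% ± 1.9 of the X-linked UMIs of members, against 1.5% ± 0.14 in other wells, and Ndufa1, Prdx4, Gm364 and Fmr1nb led that list. Irak1 came next, but 307 of its 312 member UMIs were from mouse 1. At the other end, Hprt of purine salvage had 24 member UMIs (log2 fold change -2.24 ± 0.28, adjusted p = 6.1e-14), and Tex11, an X-linked crossover gene, stood at 9.01, 38.2 and 9.90, beside 57.3, 128 and 69.9.

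Genes of chromosome synapsis were high. Of 8 synaptonemal complex genes, 6 were higher in members than in other wells and 1, Syce1, was lower, with a median log2 fold change of 0.84 (all tested genes -0.19). Of all tested genes 16.5% were higher and 26.9% were lower, the background for every list count against other wells. Sycp3, of the lateral element, stood at 2552, 3848 and 2986 CPM in members and 1010.3, 1319.6 and 1048 in other wells (log2 fold change 1.57 ± 0.14, adjusted p = 1.9e-25). Sycp1, which forms the transverse filaments, stood at 2955, 2885 and 2642 and 1355, 1401 and 1081 (1.26 ± 0.14, adjusted p = 6.4e-17). Neither gene overlapped between the sets. Sycp2 (0.83 ± 0.14, adjusted p = 4.2e-08), Syce3 (0.89 ± 0.15, adjusted p = 2.1e-08) and Tex12 (0.86 ± 0.16, adjusted p = 1.1e-06) of the lateral and central elements were higher as well. Syce1, also of the central element, fell to 251, 247 and 320.4 from 366, 373 and 456, a call that ended without mouse 2 (adjusted p = 0.17) or mouse 3 (adjusted p = 0.091). The Syce1 call also ended with members chosen on thinned wells (-0.17, adjusted p = 0.33), with the top 10% of wells (adjusted p = 0.06) and without the mouse block (adjusted p = 0.13). The call for Sycp2 ended without mouse 2 (adjusted p = 0.082). Among cohesin genes, the ring proteins that hold sister chromatids, 1 of 6 was higher and 3 were lower: the meiosis-specific Stag3 stood at 576, 602 and 607, beside 420.2, 544 and 572 (0.34 ± 0.13, adjusted p = 0.026, and 0.32 without mouse 2 or 0.059 without mouse 3) and the mitotic Rad21 at 39.9, 106 and 64.3, beside 115, 160.1 and 142.

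Of 6 measured genes for the formation of double-strand breaks, none was higher and 3 were lower. Prdm9, which marks the break sites, stood at 15.5, 8.81 and 7.42 CPM, beside 27.0, 57.8 and 33.7 in other wells (-1.58 ± 0.33, adjusted p = 9.3e-06), and Mei1 at 3.86, 2.94 and 3.71, beside 21.4, 48.4 and 34.9. Spo11, which makes the breaks, stood at 69.5, 79.2 and 129.9, beside 121, 91.6 and 148, and did not pass (adjusted p = 0.13). Of 17 tested genes of strand exchange, 8 were higher and 3 were lower, with a median log2 fold change of 0.31. Meiob, which binds single-stranded DNA, stood at 403, 455 and 387 against 79.0, 104 and 53.1 (2.57 ± 0.14, adjusted p = 2.2e-74), and Rad51ap2 at 199.6, 164 and 126 against 37.2, 40.0 and 19.5 (2.53 ± 0.16, adjusted p = 9.2e-50). Dmc1, the meiotic recombinase, stood at 227, 170.2 and 153 against 68.4, 112 and 87.8 (1.21 ± 0.15, adjusted p = 1.1e-14). Psmc3ip, the partner of Mnd1, stood at 287, 252 and 317 against 246, 201 and 279.9, a small rise (0.35 ± 0.14, adjusted p = 0.028) that ended without mouse 2 (adjusted p = 0.36) or mouse 3 (adjusted p = 0.081). Brca2, which loads the recombinases, was lower at 79.8, 106 and 101 against 213, 232 and 160.4 (-0.94 ± 0.16, adjusted p = 3.7e-08), as was Rpa1 of the single-strand binding complex. For crossover maturation, 3 of 11 tested genes were higher and 5 were lower. Msh4 rose to 131, 120.3 and 145 from 59.9, 48.0 and 60.7 (1.34 ± 0.16, adjusted p = 4.8e-15), Hfm1, a helicase, stood at 308, 373 and 349 against 201, 259 and 226, and the nuclease gene Exo1 was lower.

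Of 13 genes of sex chromosome silencing, 7 were higher and 3 were lower, with a median log2 fold change of 0.32. H2afx, whose phosphorylated product covers the sex body, stood at 406, 458 and 293 CPM in members and 128, 127 and 98.9 in other wells (1.80 ± 0.13, adjusted p = 5.4e-38). Hormad1 and Hormad2, which mark unsynapsed axes, were higher too, Hormad1 at 1086, 1236 and 1181 against 408, 444 and 430.2 (1.56 ± 0.13, adjusted p = 5.9e-29). Mdc1, which spreads the phosphorylated histone through chromatin, stood at 560.1, 639.9 and 546 against 377, 449 and 383 (0.64 ± 0.13, adjusted p = 7.9e-06), and Topbp1, an activator of the kinase ATR, at 502, 399 and 525 against 304, 341 and 316. The 3 lower genes were Brca1, the histone methyltransferase gene Ehmt2 and Scml2, which is itself X-linked (-1.41 ± 0.17, adjusted p = 2.2e-15). The call for Brca1 ended without mouse 1 (adjusted p = 0.07) or mouse 3 (adjusted p = 0.19). The values of H2afx, Hormad1, Mdc1 and Topbp1 lay apart between members and other wells. Against Rad51ap2-high wells, 3 of the 13 genes were higher in members and 5 were lower, beside 17.1% and 16.1% of all genes tested there. The list summed to 4190, 4797 and 5754 CPM in Rad51ap2-high wells, above the 3737, 4121 and 3999 of members. The X-linked Scml2 had a large part in this gap, at 589, 971 and 1109 CPM in Rad51ap2-high wells and 59.2, 61.6 and 75.5 in members. The median log2 fold change of the list, members minus Rad51ap2-high wells, was 0.17, so the sums do not show a fall of the list as a whole. In Aym1/Slc47a2-high wells 7 of the 13 were lower than in members and none was higher, beside 24.6% and 19.8% of all genes tested there.

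**Figure D4:**
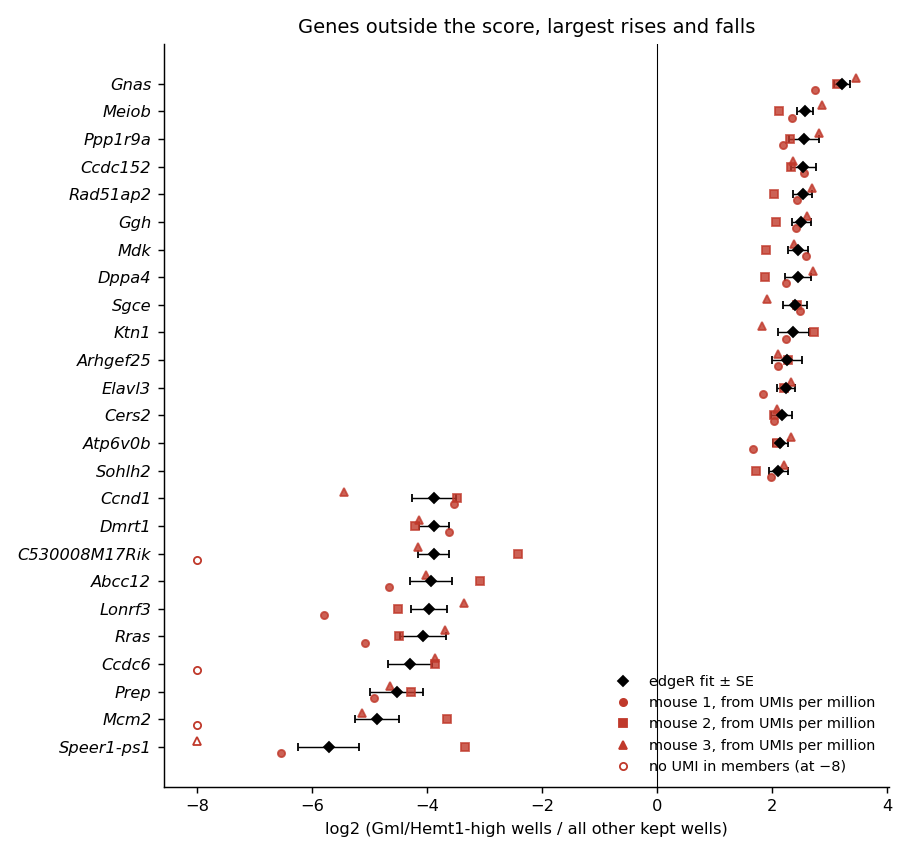
Log2 fold change against all other kept wells for the 15 genes with the largest rises and the 10 with the largest falls, as the edgeR fit ± SE (black) and the ratio in each mouse (red). Gnas rose most, by 3.22, and open symbols at the left edge mark mice without a UMI in members.

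Outside these groups, the largest rise was that of Gnas, which encodes the stimulatory G protein alpha subunit. Gnas stood at 910.4, 1021 and 1128 CPM in members and 137, 116 and 103 in other wells (3.22 ± 0.14, adjusted p = 4.4e-113). After Gnas and Meiob came Ppp1r9a, Ccdc152 and Rad51ap2, then Ggh (gamma-glutamyl hydrolase), the growth factor gene Mdk, Dppa4, Sgce, Ktn1, Arhgef25, Elavl3, Cers2, Atp6v0b and Sohlh2. Ggh stood at 164, 158 and 161 against 30.5, 37.6 and 26.6 (2.51 ± 0.16, adjusted p = 5.0e-49). Sohlh2, a transcription factor gene known from spermatogonia, stood at 159.7, 135 and 136 against 40.3, 41.1 and 29.6 (2.11 ± 0.17, adjusted p = 2.1e-34), while its partner Sohlh1 gave 1 UMI in all members (ratio to other wells 0.0188, exact 95% counting interval 0.000475 to 0.105). The 10 largest falls were Speer1-ps1, Mcm2, Prep, Ccdc6, Rras, the X-linked Lonrf3, Abcc12, C530008M17Rik, Dmrt1 and Ccnd1. Dmrt1, a regulator of spermatogonia, stood at 9.01, 11.7 and 9.90 against 110.0, 217 and 175 (-3.88 ± 0.26, adjusted p = 2.8e-48), and Mcm2 of the replicative helicase at 0, 8.81 and 2.47 against 65.1, 111 and 86.9. Speer1-ps1 had 2 UMIs in all members (ratio 0.0165, interval 0.00199 to 0.0595).

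Gml and Hemt1 belong to the Ly6 group of small surface proteins. Of its 4 tested genes outside the score, Ly6k and Tex101, a pair of GPI-anchored sperm fertility proteins, were higher and Lypd4 was lower. The Lypd4 call ended with members chosen on thinned wells (adjusted p = 0.09) and without the mouse block (adjusted p = 0.25). Ly6k, on chromosome 15 as Gml is, stood at 1167, 1142 and 894 against 402, 377 and 346 (1.61 ± 0.13, adjusted p = 4.8e-31), and Tex101 at 1528, 2081 and 1721 against 681, 867 and 718 (1.34 ± 0.14, adjusted p = 1.6e-20). Pnp acts in purine salvage, but none of the 7 other tested genes of that list was higher and 5 were lower, Aprt (-1.30 ± 0.18, adjusted p = 3.3e-11) and Adk (-1.80 ± 0.34, adjusted p = 8.9e-07) among them.

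Programs of later stages were mixed against the whole of the other wells, where 16.5% of all tested genes were higher and 26.9% were lower. Of 15 piRNA pathway genes 6 were higher and 5 were lower. Mov10l1, a helicase that feeds precursors into piRNA processing, stood at 721, 1179.9 and 915 against 323, 385 and 360.0 (1.48 ± 0.13, adjusted p = 9.0e-27), and Piwil2 at 892, 1065 and 1249 against 531, 629 and 754. Piwil1, which carries pachytene piRNAs, was lower at 715, 789.5 and 1352 against 1017, 1618 and 1885 (-0.55 ± 0.14, adjusted p = 3.9e-04, and 0.40 without mouse 2). The Piwil1 call also ended with members chosen on thinned wells (-0.17, adjusted p = 0.24), with the top 10% of wells (-0.16, adjusted p = 0.28) and without the mouse block (adjusted p = 0.27). The chromatoid body gene Tdrd6 stood at 20.6, 52.8 and 48.2 against 154, 173 and 233 (-2.21 ± 0.19, adjusted p = 2.1e-28). Of 9 pachytene transcription factor genes 3 were higher (Mybl1, Crem and Sox30) and 2 were lower, and the call for Crem ended without mouse 3 (adjusted p = 0.12). Mybl1, the master regulator of pachytene transcription, stood at 111, 58.7 and 45.8 against 48.5, 52.6 and 19.6. The 2 sets overlapped and members were higher within each mouse (1.07 ± 0.20, adjusted p = 8.0e-07, and 0.17 without the mouse as a block). Of 10 autosomal retrocopies, which replace silenced X-linked genes, 5 were higher, such as Rbmxl2 (0.84 ± 0.13, adjusted p = 5.1e-09), and 3 were lower, such as Pgk2 (-1.69 ± 0.41, adjusted p = 2.1e-04). Of 15 meiotic cell cycle genes 3 were higher and 7 were lower: Cdk1 stood at 312, 296 and 275 against 136, 129 and 122 (1.30 ± 0.14, adjusted p = 1.5e-19), and Ccna2 at 11.6, 14.7 and 18.6 against 67.7, 133 and 97.8 (-2.52 ± 0.25, adjusted p = 5.8e-22).

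The label was compared with stage markers. Against all other wells, 3 of 4 tested markers of undifferentiated spermatogonia, 7 of 8 of differentiating spermatogonia and 3 of 5 of the preleptotene stage were lower in members. Stra8, the meiotic entry gene, stood at 5.15, 20.5 and 19.8 against 88.5, 228 and 149. Of 9 leptotene and zygotene markers 4 were higher and 4 were lower, and of 13 pachytene markers 2 were higher and 7 were lower, so against the whole of the other wells these markers did not point to 1 stage. The wells are therefore called Gml/Hemt1-high wells or members here. Dazl, the gene of the reporter, stood at 2552, 3091 and 2573 CPM in members and 1091, 1411 and 983 in other wells. Markers of somatic cells were near 0: the summed level of 6 Sertoli markers was 9.01, 5.87 and 18.6 CPM in members, beside 22.1, 29.8 and 41.5 in other wells, and 3 of 5 Leydig and both measured macrophage markers had no member UMI. The 4 markers of elongating spermatids summed to 25.8, 52.8 and 218 CPM in members and to 35.6, 176 and 154 in other wells. The 6 markers of round spermatids summed to 24.5 to 44.0 CPM in members and to 11.7 to 27.4 in other wells, and the sum was higher in members in each mouse. Of the 3 tested, 1 was higher, Spaca1 of the acrosome membrane, at 18.0, 38.2 and 30.9 against 5.80 to 9.82 (2.07 ± 0.37, adjusted p = 1.9e-07), and none was called lower. Spaca1 made up most of the member sums of 24.5, 44.0 and 37.1, so the higher sum does not describe the 6 markers as a group. The median log2 fold change of the 3 tested was -0.74 and the lowest was -1.28. The part of spermatid RNA in the member values was not tested.

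Set beside Rad51ap2-high wells, members had less X-linked RNA and more RNA of pachytene genes. Of 10094 genes tested, 1727 were higher in members (17.1%) and 1629 were lower (16.1%), and both sets were chosen by measured values. Without mouse 1 the counts were 1126 and 1297, and without mouse 3 1007 and 1068. None of 322 X-linked genes was higher and 260 were lower. Of 13 pachytene markers 7 were higher and none was lower. Hspa2, a chaperone of spermatocytes, stood at 1219, 1541 and 1783 CPM in members and 554, 612 and 733 in Rad51ap2-high wells (1.31 ± 0.16, adjusted p = 3.0e-07), and Ldhc, the testis lactate dehydrogenase, at 509, 540.1 and 1109.6 and 128, 165 and 495 (1.53 ± 0.20, adjusted p = 9.9e-07). Of 15 piRNA genes 11 were higher and none was lower, with a median log2 fold change of 1.25 (all tested genes 0.02), including Piwil1 at 715, 789.5 and 1352 against 118, 262 and 365 (2.08 ± 0.19, adjusted p = 3.4e-09). Of 10 retrocopies 6 were higher and none was lower.

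The same comparison gave lower values for break formation and for leptotene and zygotene markers, but not for strand exchange as a whole. Of 15 tested strand exchange genes 3 were higher and 2 were lower, with a median log2 fold change of 0.31. Of 11 crossover genes 1 was higher and 4 were lower. Of 6 genes of break formation 5 were lower, with Prdm9 at 15.5, 8.81 and 7.42 against 79.7, 214 and 186 (-3.66 ± 0.36, adjusted p = 1.1e-08), and 6 of 8 tested leptotene and zygotene markers were lower, with Dmc1 at 227, 170.2 and 153 against 360.4, 427 and 811 (-1.47 ± 0.23, adjusted p = 1.0e-05). Of 8 synaptonemal complex genes none was higher and 2 were lower. Meiob did not pass (403, 455 and 387 against 364, 592 and 372, adjusted p = 0.86). H2afx was higher in members, at 406, 458 and 293 against 107, 165 and 96.8 (1.77 ± 0.19, adjusted p = 3.4e-08). Gnas was higher too, at 910.4, 1021 and 1128 against 433, 486 and 301 (1.45 ± 0.17, adjusted p = 1.9e-07). The 8 largest rises were Lrrc34, Aym1, 1700011I03Rik, Tmem159, Pou6f1, Cpt1c, Smpd5 and Dynlrb2. Lrrc34 stood at 116, 91.0 and 127 against 0, 0 and 18.6 (3.99 ± 0.46, adjusted p = 1.7e-07), and Pou6f1, a POU homeobox gene, at 108, 117 and 89.1 against 0, 9.71 and 18.6. The 8 largest falls were all sex-linked (Usp11, Mtmr1, A830080D01Rik, Zfy2, 1700013H16Rik, Xlr4a, Kdm6a and Rbmx2), with 1 Usp11 UMI in all members against 46 in the 63 Rad51ap2-high wells (ratio per UMI 0.00745, exact 95% counting interval 0.000185 to 0.0436).

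**Figure D5:**
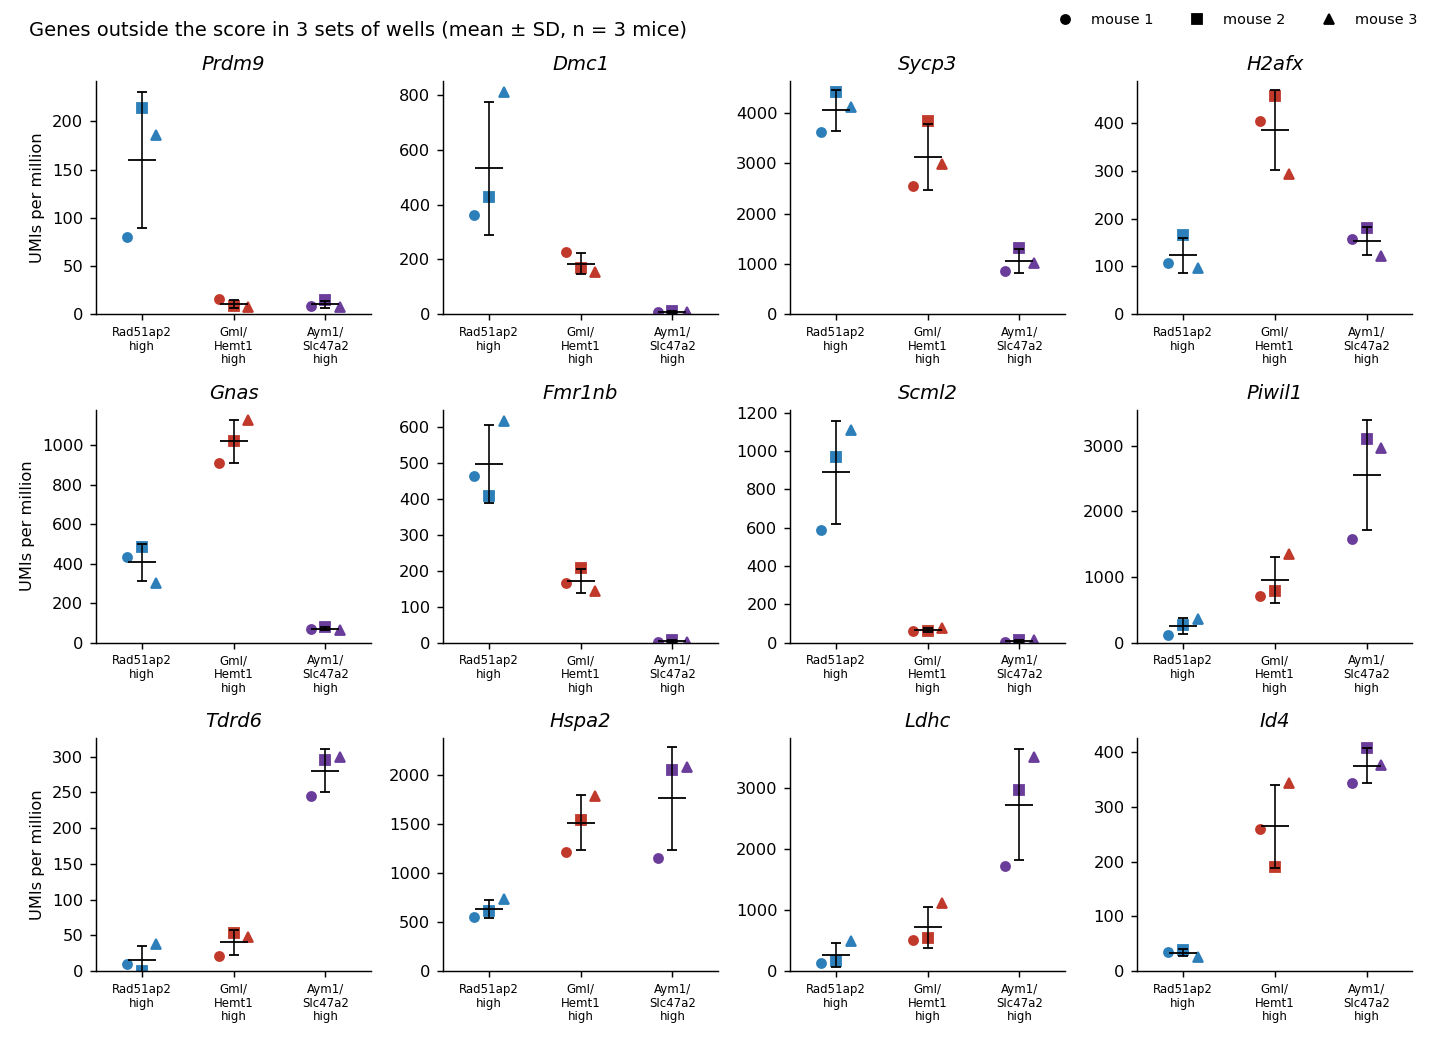
CPM of 12 genes outside the score in 3 sets of wells, with a symbol for each mouse and a bar for the mean ± SD (n = 3 mice). H2afx and Gnas were highest in the Gml/Hemt1-high wells, Prdm9, Dmc1, Fmr1nb and Scml2 in the Rad51ap2-high wells, and Tdrd6, Ldhc and Piwil1 in the Aym1/Slc47a2-high wells.

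Set beside Aym1/Slc47a2-high wells, members had more RNA of most synaptonemal complex genes. Of 10093 genes tested, 2002 were higher in the Aym1/Slc47a2-high wells (19.8%) and 2481 were lower (24.6%). The lower count was 1566 without mouse 1 and 1378 without mouse 3. The share of higher genes among those called was 44.7%, and the median log2 fold change of all genes was -0.06. With DESeq2 the values were 56.2% and 0.08. Without mouse 1, 2 and 3 in turn the share was 55.2%, 57.1% and 60.8%. Read counts gave 63.5%, no mouse block 58.8%, no filter 61.4%, the top 3% of wells 56.0% and the lower UMI minimum 56.1%. The other scores, thinning, the top 10% of wells, the higher UMI minimum and the fit without the gate-sorted library gave 44.4% to 46.0%. The side with more called genes thus turned with the setting. This comparison shares its member sums with the preceding one, so the values are set side by side only. Of 8 synaptonemal complex genes 7 were lower in Aym1/Slc47a2-high wells, and 1 was higher, with Sycp3 at 856, 1324 and 1009 against 2552, 3848 and 2986 in members (-1.63 ± 0.13, adjusted p = 7.6e-11, Aym1/Slc47a2-high minus members). Recombination genes went both ways: of 16 strand exchange genes 2 were higher and 5 were lower in Aym1/Slc47a2-high wells, of 6 break formation genes 1 was higher and none was lower, and of 11 crossover genes 5 were higher and 5 were lower. Dmc1 stood at 6.22, 13.2 and 7.63 against 227, 170.2 and 153 (-4.63 ± 0.31, adjusted p = 1.1e-12), and Gnas at 67.6, 79.5 and 63.2 against 910.4, 1021 and 1128 (-3.98 ± 0.17, adjusted p = 2.5e-16). H2afx stood at 157, 180.1 and 121 (-1.41 ± 0.13, adjusted p = 8.4e-10), so its member level was above both neighbouring sets in each mouse. None of 11 tested pachytene markers was lower and 7 were higher, with Ldhc at 1727, 2968 and 3507 (1.88 ± 0.16, adjusted p = 1.2e-10). Of 15 piRNA genes 7 were higher and 6 were lower, and the largest rise among them was that of Tdrd6, at 245, 295 and 300.0 (2.82 ± 0.21, adjusted p = 8.8e-12). Id4, an inhibitor of basic helix-loop-helix factors known from spermatogonial stem cells, stood at 259, 191 and 343 in members against 34.7, 38.8 and 26.1 in Rad51ap2-high wells (3.15 ± 0.29, adjusted p = 2.5e-09). In Aym1/Slc47a2-high wells Id4 stood at 344, 407 and 376.

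The 8 genes with the largest rises toward the Aym1/Slc47a2-high wells were Tcp10b, Speer1-ps1, Tcp10a, Gm6455, 1700018F24Rik, Them6, Gm13889 and Abcc12. Tcp10b had no UMI in 1925683 member UMIs and 356 in the Aym1/Slc47a2-high wells, at least 39.7-fold higher against a floor of 3 UMIs over the members. In Aym1/Slc47a2-high wells of mice 1, 2 and 3 Tcp10b stood at 155, 1.32 and 2.18 CPM, so this pooled bound rests on mouse 1. Tcp10a, Tcp10b and Gm6455 were high in mouse 1 alone among other wells (121, 4.45 and 3.30 for Tcp10a), and Tcp10a and Tcp10b are closely related copies whose reads may be split. The 8 largest falls were Fmr1nb, Prss50, Elavl3, Prdx4, Rad51ap2, Gm364, Dmc1 and Ccdc152. Prss50, a testis protease gene, stood at 139, 294 and 233 in members and 0.889, 15.9 and 5.08 in Aym1/Slc47a2-high wells (-5.42 ± 0.28, adjusted p = 1.0e-14), and Fmr1nb at 166, 208 and 142 and 1.33, 7.95 and 1.45 (-6.21 ± 0.33, adjusted p = 2.1e-14). Of 322 X-linked genes 71 were lower in Aym1/Slc47a2-high wells (22%), a share near the 24.6% of autosomal genes. Only 7 were higher (2.17%), beside 20.5% of autosomal genes. The median log2 fold change was -0.998 over X-linked genes and -0.0448 over autosomal genes.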

How the data were processed

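Single live Dazl-GFP-positive cells of 3 mice were measured by SORT-Seq. The deposited tables hold UMI counts per gene and well, made by the authors with BWA 0.7.10 on mm10, per the submitters' processing notes, and read counts per gene and well, deposited alongside. How reads were assigned to strands is not given in the sources used here. Total UMIs were 16682671 in the mouse 1 libraries, 5866174 in mouse 2, and 12353651 and 5678911 in mouse 3, with 3.15 to 4.23 reads per UMI. No gene exceeded 256 UMIs in a kept well of mouse 1, where score genes reached 82 in members. Spike-ins, mitochondrial genes, the reporter and Rn45s (0.427%, 5.12% and 0.656% of UMIs) were dropped. No well was removed as a doublet, and no well names were shared between libraries.

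UMI counts were summed per mouse and set and tested with edgeR 4.0.16 (R 4.3.3, TMM, filterByExpr, quasi-likelihood test, Benjamini-Hochberg over all genes tested). The fit was first run on simulated sums. These held no differences between mice and no choice of wells by score, so that run could not check either. Members against others used 6 sums, and the neighbouring sets 12 sums. The mouse was a block, because both sets of a comparison came from the same animals. With 2 residual degrees of freedom in the first fit, gene spreads were pooled over all genes. X shares and spike-in ratios were tested by exact two-sided permutation over mice. Counting intervals are exact at 95% and cover counting error only. Fold changes are log2, members minus the other set, except for Aym1/Slc47a2-high minus members. The SE of a fold change was worked back from the edgeR test, as the absolute log2 fold change over the square root of its F statistic. It therefore adds nothing to the p-value. Python 3.11.15, pandas 2.3.3, numpy 2.4.6 and scipy 1.17.1 were used.

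Named genes were the score genes, the 15 largest rises and 10 largest falls against other wells, the 8 and 8 largest against each neighbouring set (adjusted p under 0.05, same sign in 3 mice, at least 50 CPM in the higher set), and genes of the lists. Atp6ap1, Ndufa1, Irak1, Id4 and Dazl were chosen after their values were seen. The members and lists were chosen with earlier results of these data known. Alternatives were other UMI minimums (1000 and 6000), other shares of wells (3% and 10%), other scores, thinning, read counts, DESeq2 1.42.0, no filter, no mouse block and each mouse left out. Promoters on chromosome 18 were not used.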

Additional observations from a re-analysis of the deposited data

How the results depend on the processing

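Of 120 named gene results that passed the test, 104 passed with the same sign under all 16 alternatives run on genes, and none reversed in the alternatives that gave it a value. Many of these results were picked for a large change of the same sign in 3 mice, and the alternatives used overlapping wells. The count is therefore no independent check. Of all 5301 genes called against other wells, 3108 were also called with thinning and 2758 without the mouse block. For 3 results (Tcp10a, Tcp10b and Gm6455 against Aym1/Slc47a2-high wells) the fit without mouse 1 gave no value, and for Tcp10b neither did the fit without the mouse block. With members chosen on wells thinned to 3000 UMIs, 1236 genes were higher and 2126 lower than in other wells. DESeq2 gave 1889 lower genes. With the top 3% of wells, 847 genes were higher than in Rad51ap2-high wells, and 1433 were lower in Aym1/Slc47a2-high wells; read counts gave 1026 for the latter. Leaving out each mouse gave 1250 to 1977 higher and 2067 to 2555 lower genes against other wells, 1007 to 1327 higher and 1068 to 1366 lower against Rad51ap2-high wells, and 1378 to 1666 lower genes in Aym1/Slc47a2-high wells. The log2 difference of the X share was -1.13 when Gml and Hemt1 were not in the score and -1.93 with read counts. UMIs per spike-in UMI differed by -0.42 with Gml and Hemt1 alone as the score, and by 0.36 as a median over wells. The causes were not tested.

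Without the mouse as a block, which pairs the sets of a mouse, 1268 genes were higher and 1500 lower against other wells, 1140 and 924 against Rad51ap2-high wells, and 1318 and 923 in Aym1/Slc47a2-high wells, and 14 of the named calls ended. Of 322 X-linked genes 175 were then lower than in other wells. The score without Gm3833 was chosen after seeing the data, because Gm3833 is a copy of Mnd1, and gave an X share difference of -1.71. With 3 mice, no permutation p could fall below 0.1, and genes with few member UMIs have wide counting intervals.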
